A study of Homo sapiens with 4 samples.

Results

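Heme is opened by the heme oxygenases HMOX1 and HMOX2, which release iron and biliverdin. The biliverdin reductase BLVRA turns that biliverdin into bilirubin, and the reductase BLVRB acts on other isomers of biliverdin. The released iron is stored in ferritin, a shell of heavy (FTH1) and light (FTL) chains. The transferrin receptor TFRC brings iron into the cell and ferroportin, encoded by SLC40A1, carries it out. BACH1 is a repressor of HMOX1 and of the ferritin genes that heme inactivates, and ferrochelatase (FECH) inserts iron into protoporphyrin in the last step of heme synthesis. HMOX1 is widely known as a gene that arsenite induces.
These 10 genes, of 18478 named genes on the array, were followed through 4 microarrays of NB4, an established human cell line from acute promyelocytic leukemia (APL). The 2 naive flasks held the parental line, and the 2 resistant flasks held an in-house line resistant to arsenic trioxide (ATO), which was 1 clone and had been without ATO for 1 week before RNA was taken. Both lines were grown in RPMI with FBS, and no flask of this experiment was taken during ATO treatment. All 4 arrays lay on 1 slide, and the position on it cannot be told apart from the line. The genes were chosen by earlier results of the same comparison, in which BLVRA stood out, so that their differences between the lines are given here as a description without p-values. Every probe that carries a member's name was taken, 19 in all, and the values are log2 processed signals minus the 75th percentile of each array, 0 being that percentile.
The probe sequences and start regions below are shown because they say which part of each transcript the array measured and what lies at the start of the gene that differed most. The BLVRA probe (A_23_P71148) lies on the plus strand at chr7:43846842-43846901 of hg19, and the BLVRB probe (A_23_P153351) on the minus strand at chr19:40957318-40957377. The BLVRA probe begins at base 981 of its transcript and has a stop codon in each of its forward reading frames. The BLVRB probe begins at base 486 and has 1 frame without a stop. The first 30 bases of the BLVRA probe and the whole BLVRB probe are as follows.
BLVRA probe: aggtgatgtagcacttccaagatggcacca
BLVRB probe: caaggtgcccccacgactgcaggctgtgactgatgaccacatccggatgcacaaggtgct
The 150 bases before the start of each reductase gene come from RefSeq's GRCh38.p14 windows, at chr7:43758530-43758679 on the plus strand for BLVRA and at chr19:40465746-40465895 on the minus strand for BLVRB. Capitals mark CG, the dinucleotide at which DNA methylation takes place.
BLVRA start region: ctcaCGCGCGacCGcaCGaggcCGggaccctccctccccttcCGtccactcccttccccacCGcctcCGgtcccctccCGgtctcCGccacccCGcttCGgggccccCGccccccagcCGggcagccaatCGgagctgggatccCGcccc
BLVRB start region: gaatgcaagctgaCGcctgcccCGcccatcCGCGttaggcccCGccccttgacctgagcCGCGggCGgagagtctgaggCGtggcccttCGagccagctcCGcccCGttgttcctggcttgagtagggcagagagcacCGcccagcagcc
Over windows of 250 bases before to 50 after the start, BLVRA held 31 CG and BLVRB 26, against a median of 14 over 35116 windows of the same length. The BLVRA count was above that of 79.3% of the windows and the BLVRB count above that of 69.9%. Windows were found for 8 of the 10 members, all but HMOX1 and FTH1. SLC40A1 held 47 CG, TFRC 37, FECH 34 and FTL 23, while the entries of HMOX2 held 29 and 0 and those of BACH1 held 47, 41 and 1. The arrays do not measure methylation.
The BLVRA probe read 1.17 and 1.33 in the naive flasks and -4.20 and -4.27 in the resistant flasks. On the linear scale these were processed signals of 2425 and 2257 in naive cells and of 57.0 and 43.5 in resistant cells. The lines did not overlap, flasks of the same line lay close together, and the probe was well above background on all 4 arrays. The log2 change from naive to resistant was -5.49 (standard error 0.22), a level 44.8-fold lower. BLVRA has only 1 probe on the array, so that no second probe could be set beside it. Its change lay between -5.57 and -3.57 over 18 alternatives and was called in 16 of them. The exceptions were normexp background correction and the methods' t-test, under which no probe of the array was called. The size depended on the background correction. The log2 change was -3.57 under normexp and -4.31, called, under normexp with bright local backgrounds reset.
BLVRB, whose enzyme reduces other isomers of biliverdin as well as flavins, read -2.44 and -2.28 in the naive flasks and -0.99 and -1.01 in the resistant flasks. Both resistant flasks were above both naive flasks, and the log2 change was 1.36 (standard error 0.22), or 2.58-fold higher. BLVRA was thus lower and BLVRB higher in the resistant line, and these directions held in all 18 alternatives. The BLVRB call was lost without either of the resistant flasks, with log2 changes of 1.35 and 1.38, and, at the same change of 1.36, with the replicate number as a block and without the filter on dim probes.
In the fit over all probes a probe was called at a Benjamini-Hochberg adjusted p below 0.05 from limma and a change of at least 2-fold. Taking the brightest probe of each gene, 2 of the 10 members were called, BLVRB among the genes higher and BLVRA among those lower in resistant cells. Of all 14028 named genes tested, 6.26% were called, 2.92% as higher and 3.34% as lower. By probes, 2 of the 18 member probes tested were called against 5.27% of all 28221 probes. Nothing is read from these shares, since the comparison chose the members. The median log2 change over the members was 0.01 and, without BLVRA, 0.08, and that over all named genes tested was 0.00279. No member probe was saturated on any array.

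**Figure D1:**
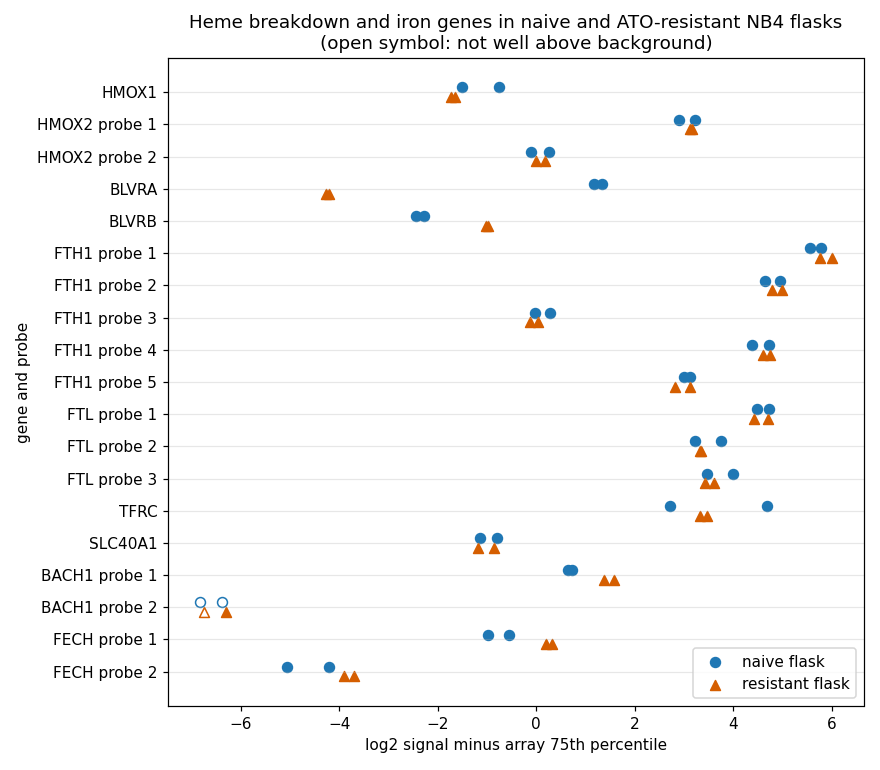
Each row is a probe of a member gene, and each symbol is 1 flask, with the log2 signal relative to the array's 75th percentile on the horizontal axis. The BLVRA row is the only one with a gap of over 5 log2 units between naive circles and resistant triangles, while the naive circles of TFRC lie 1.97 apart.

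The heme oxygenases, which act before BLVRA, showed smaller differences. HMOX1 was read by 1 probe printed in 10 spots per array. Its means were -0.75 and -1.50 in the naive flasks and -1.72 and -1.65 in the resistant flasks. Both resistant flasks lay below the naive flasks, but the second naive flask was nearer to them than to the first naive flask. The log2 change was -0.56 (standard error 0.32) and was not called. It ranged from -0.93 to -0.19 over the alternatives, none of which called it. HMOX2, the constitutive form, was read by a pair of probes. The brighter one gave 3.23 and 2.90 in naive and 3.16 and 3.11 in resistant flasks, and the other gave 0.27 and -0.10 against 0.18 and -0.00242. The lines overlapped at both probes, with log2 changes of 0.08 and 0.00119.
TFRC, the receptor for transferrin-bound iron, differed more between the naive flasks than between the lines. Its probe, also printed in 10 spots, read 4.70 and 2.73 in the naive flasks and 3.46 and 3.33 in the resistant flasks, which lay between them. The difference of -1.97 between naive flask 2 and naive flask 1 was larger in size than that of 98.1% of the probes tested. Over all probes tested the SD of that difference was 0.71, against 0.37 between the resistant flasks, and the spike-in controls of naive flask 1 stood apart by -1.31 from those of naive flask 2, whose part in the TFRC and HMOX1 values was not tested. The SD over the spots of an array was 0.02 to 0.09 for TFRC and 0.02 to 0.06 for HMOX1, which covers the printing and scanning of an array and not the growth of a flask. For HMOX1 the difference between the naive flasks was larger in size than that of 76.7% of the probes tested. The line difference of TFRC was -0.31 (standard error 0.64) and was not called. It depended on the flasks. Without naive flask 1 it was 0.67 and not called, and without naive flask 2 it was -1.30 and called.

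**Figure D2:**
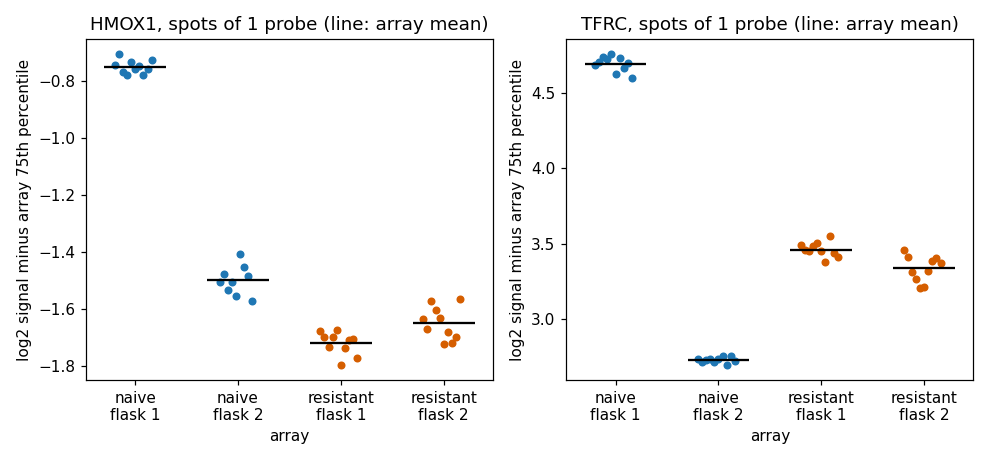
Each point is 1 spot of the HMOX1 probe (left) or the TFRC probe (right), by array, as log2 signal relative to the array's 75th percentile, and the line is the array's mean. In both panels the naive arrays form separate clusters, at -0.75 and -1.50 for HMOX1 and at 4.70 and 2.73 for TFRC.

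SLC40A1, the exporter, read -0.79 and -1.14 in the naive flasks and -0.86 and -1.17 in the resistant flasks. The lines overlapped, and the log2 change was -0.05 (standard error 0.26).
The ferritin chains showed no difference beyond the spread between flasks. Translation of ferritin is held back by proteins that bind an iron-responsive element near the start of its mRNA when iron is scarce, a step that a measurement of mRNA does not see. In the RefSeq window of FTL (GRCh38.p14, chr19:48965332-48965356, plus strand) the loop letters of that element, CAGTG, begin 39 bases after the start and are in capitals here.
FTL element: tgtctcttgcttcaaCAGTGtttgg
The pattern CNNNNNCAGTG, a C ahead of that loop, lay in the sense strand of the first 50 transcribed bases in 1.71% of the 35116 windows, and in either strand in 3.33%. Of the members with a window, FTL alone held it in the sense strand of these 50 bases. FTH1 and HMOX1 had no window, so the pattern was not looked for there. CAGTG by itself was in 6.48%.
FTH1 has 5 probes. The brightest read 5.56 and 5.78 in naive and 5.76 and 6.01 in resistant flasks. The lines overlapped at all 5 probes, and their log2 changes lay between -0.18 and 0.21. FTL has 3 probes, of which the brightest read 4.73 and 4.48 in naive and 4.42 and 4.70 in resistant flasks. The lines overlapped at all 3, with log2 changes of -0.05, -0.16 and -0.21.
The array's annotation places 4 of the 5 FTH1 probes and 1 of the 3 FTL probes off the chromosome of their gene, although all carry its RefSeq transcript. FTH1 lies on chromosome 11 and FTL on chromosome 19, and both genes have many processed copies elsewhere. Such probes may read a copy together with the gene, so that the ferritin values are uncertain in that respect. A pair of FTH1 probes shows how near the copies are. A_24_P58337 is placed at chr1:228823438-228823497 (hg19, plus strand) and A_32_P111565 at chr5:17354068-17354127 (hg19, minus strand). Capitals mark the bases at which they differ.
FTH1 probe, chromosome 1: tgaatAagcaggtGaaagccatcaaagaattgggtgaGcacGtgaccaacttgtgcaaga
FTH1 probe, chromosome 5: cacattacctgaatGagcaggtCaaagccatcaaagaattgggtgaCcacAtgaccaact
The probes share a stretch of 51 bases with 4 differences, A6G, G14C, G38C and G42A, giving the base of the first probe, its position from the 5′ end of that probe, and the base of the second. Their log2 changes were 0.09 and 0.12, both with a standard error of 0.24. The probe placed on chromosome 11 itself read -0.01 and 0.29 in naive and 0.04 and -0.12 in resistant flasks, a log2 change of -0.18 (standard error 0.24). FTHL17, a ferritin heavy chain-like gene, was listed apart, with a log2 change of -0.19 (limma adjusted p = 0.691).
BACH1, the heme-sensing repressor, read 0.72 and 0.64 in naive and 1.37 and 1.59 in resistant flasks at its brighter probe. Both resistant flasks were above both naive flasks, with a log2 change of 0.80 (standard error 0.23), or 1.74-fold. It was not called in the main comparison or in any of the 18 alternatives, which gave 0.49 to 0.90. Its other probe was well above background on 1 resistant array alone and was not tested.
FECH read -0.56 and -0.99 in naive and 0.33 and 0.21 in resistant flasks at its brighter probe, and -5.06 and -4.20 against -3.70 and -3.90 at the other. The resistant flasks were the higher ones at both probes, with log2 changes of 1.04 (standard error 0.25) and 0.83 (standard error 0.35). Neither probe was called. Without naive flask 1 the brighter probe was called, with a log2 change of 1.26. Counting the members together, the lines did not overlap at 6 of the 18 tested probes, 4 of them higher in resistant cells (BLVRB, BACH1 and both of FECH) and 2 lower (BLVRA and HMOX1). Over the array, the lines did not overlap at 52.8% of the 28054 tested probes measured on all 4 arrays.
The rest of heme synthesis was set beside FECH through a list of 8 enzymes. UROD, which decarboxylates uroporphyrinogen, rose from 2.76 and 2.68 to 3.91 and 4.18, a log2 change of 1.33 (standard error 0.23, limma adjusted p = 0.0409). It was the only enzyme of this list that passed. The call was lost without either of the resistant flasks, with log2 changes of 1.46 and 1.19, and, at the same change of 1.33, with the replicate number as a block and without the filter on dim probes. PPOX, the enzyme before FECH, had a log2 change of 0.77 (limma adjusted p = 0.239). ALAS1, the first enzyme, had -0.22 (limma adjusted p = 0.664), and UROS had -0.36 (limma adjusted p = 0.487). The median log2 change of the list was -0.15.
Of 15 tested genes of heme and mitochondrial iron transport, 1 passed. HP, which encodes haptoglobin, the carrier of free hemoglobin, rose from -2.03 and -2.91 to 0.95 and 1.32. Its log2 change was 3.61 (standard error 0.36, limma adjusted p = 0.00657), or 12.2-fold, and both resistant flasks were above both naive flasks. The heme-binding proteins HEBP1 and HEBP2 had log2 changes of -0.47 and 0.24 (limma adjusted p = 0.459 and 0.61). The mitochondrial carriers ABCB10 and SLC25A28 had 0.14 and 0.03 (limma adjusted p = 0.872 and 0.97).
Of 21 tested genes of iron uptake, export and their control, none was called higher by limma and 3 were called lower. STEAP1, a metalloreductase-family protein, read -3.16 and -4.09 in naive flasks, and neither resistant array showed it well above background, so that it was at least 7.20-fold lower (limma adjusted p = 0.00424). All 3 of its probes were called. PCBP3, of the family of iron chaperones, was likewise not well above background in resistant cells and at least 2.88-fold lower (limma adjusted p = 0.0109). It lost its call without resistant flask 2, with a log2 change of -2.41. FTMT, mitochondrial ferritin, went from -4.08 and -4.64 to -5.93 and -6.03, a log2 change of -1.62 (standard error 0.28, limma adjusted p = 0.0379). Its call was lost without either of the resistant flasks, with -1.67 and -1.57, and was kept in 9 of 18 alternatives. With normexp background correction the log2 changes of all 3 genes shrank and lost their calls, to -0.42 for STEAP1, 0.00584 for PCBP3 and 0.00880 for FTMT. With bright local backgrounds reset STEAP1 was called at -1.06, which is under its bound, and PCBP3 (-0.37) and FTMT (-0.40) were not called. Of the brightest genes of the list, PCBP1 had a log2 change of -0.14 (limma adjusted p = 0.776), and the zinc and iron carriers SLC39A8 and SLC39A14 had -0.54 and -0.30 (limma adjusted p = 0.311 and 0.538). ACO1, an iron-regulatory protein that binds the element shown above, had 0.05 (limma adjusted p = 0.955).
None of the 19 tested genes of iron-sulfur cluster assembly was called by limma. The same held for the 8 tested on the list of BACH, MAF and NFE2 factors, which also includes KEAP1. It held too for the 2 genes of biliverdin and bilirubin handling. In the cluster list the scaffold ISCU had a log2 change of -0.24, GLRX5 -0.00118, GLRX3 -0.58 and BOLA3 -0.29. In the factor list NFE2L1, saturated on all 4 arrays, had 0.04, KEAP1 -0.03, NFE2 -0.10 and MAFG 0.08. NMRAL1 had 0.48 and ABCC2, an exporter of conjugated bilirubin, 0.16. At an unadjusted p below 0.05, 13 of the 73 genes tested over the lists passed. The share of all probes at that threshold is not given here, so nothing is read from this count. In all 5 of these 73 genes (6.85%) were called, beside the 6.26% of all named genes, and their median log2 change was -0.09.

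**Figure D3:**
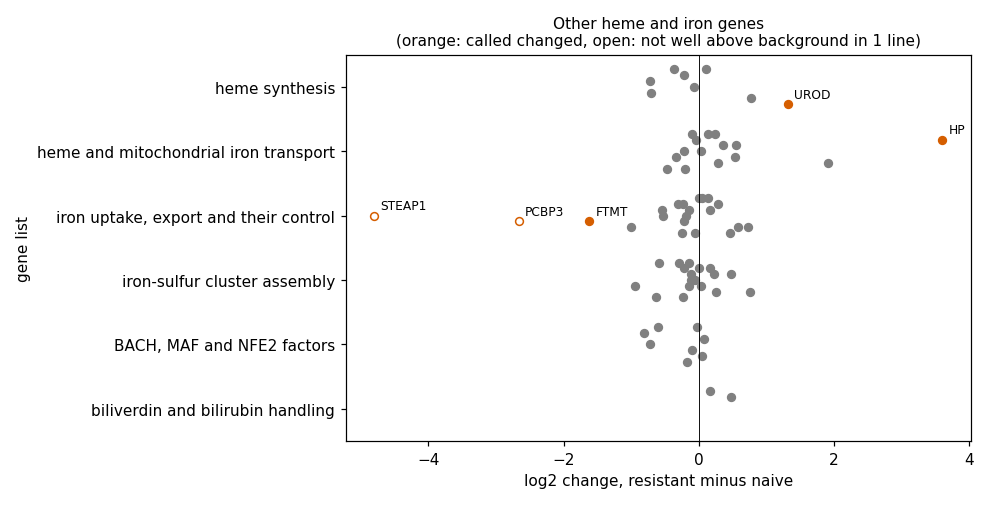
Each point is 1 gene of a list by its brightest tested probe, with the log2 change from naive to resistant on the horizontal axis and called genes in orange. Most genes lie within 1 log2 unit of 0, and HP lies at 3.61. Open circles mark STEAP1 and PCBP3, which were not well above background in resistant cells and whose fitted changes are no measured size.

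The probes beside BLVRA were examined to see whether the low signal extended along chromosome 7. Within 1000 kb on either side, 37 probes other than BLVRA were tested. Of these 2 (5.41%) were called by limma, beside 5.27% of all probes tested. Their median log2 change was -0.28, against -0.02 over all probes tested. Within 500 kb, 2 of 20 were called (10%), with a median of -0.26. Within 300 kb, 0 of 13 were called. The numbers in these narrower windows are too small to read against the share of all probes. Of the 37 probes, 7 had an unadjusted p below 0.05. The share of all probes at that threshold is not given here, so nothing is read from that count. The nearest named gene on the side of higher coordinates was MRPS24, a mitochondrial ribosomal protein gene whose probe lies 59.3 kb away, with 5.38 and 5.36 in naive and 5.37 and 5.66 in resistant flasks (log2 change 0.15, limma adjusted p = 0.779). The nearest measured gene on the other side was STK17A, a kinase gene whose probes lie at -182 and -181 kb. It read 1.19 and 0.89 in naive and -0.07 and -0.14 in resistant flasks at its brighter probe (log2 change -1.15, limma adjusted p = 0.0641), and its second probe had -0.88 (limma adjusted p = 0.106).
The called neighbours lay farther out. AEBP1, which encodes a carboxypeptidase-like protein, has a probe 307 kb from that of BLVRA and read -0.59 and 0.30 in naive flasks. On the resistant arrays it did not rise well above background, which makes it at least 80.3-fold lower on the processed signal (limma adjusted p = 0.00083). The size depends on the background correction. With normexp the log2 change was -2.77 and not called, and with bright local backgrounds reset it was -3.76 and called. POLD2, 310 kb away, had a log2 change of -0.24 (limma adjusted p = 0.634) and was named after its values were seen, for its place beside AEBP1. CAMK2B, a kinase subunit gene 414 kb away, was not well above background in naive cells and at least 1.49-fold higher in resistant cells (limma adjusted p = 0.021). It was called in 11 of 16 alternatives. The call was lost without resistant flask 2, without the filter on dim probes, with the methods' t-test, and with normexp background correction as it is or with bright local backgrounds reset, where the log2 change was 0.48 and 0.32, which is under that bound.

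**Figure D4:**
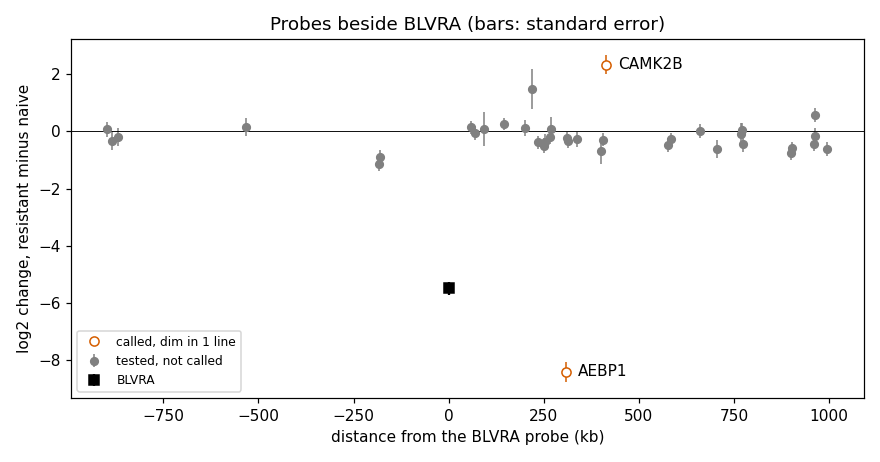
Each point is a tested probe on chromosome 7, by its distance in kb from the BLVRA probe and its log2 change from naive to resistant, with standard errors as bars. Open circles mark AEBP1 and CAMK2B, which were not well above background in 1 of the lines and whose fitted changes are no measured size. The probes between BLVRA and AEBP1 lie between -0.50 and 1.48.

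The probes whose 4 values, each minus their own mean, lay nearest to those of BLVRA by root mean square difference were RICS, ZNF30, MDFIC, ZNF879 and HYI, at 0.11, 0.11, 0.14, 0.14 and 0.19 log2 units. The first 4 of these were not well above background on the resistant arrays, so that their drop is only a bound and their distance from BLVRA, and their place in this order, are not measured. HYI was well above background on all 4 arrays, with -0.09 and 0.28 in naive and -5.77 and -5.58 in resistant flasks.
Markers of cell types were read for the label. Of 7 promyelocyte markers 6 were well above background on all 4 arrays, among them MPO, whose probe was saturated on all 4 arrays, so that a difference between the lines could not be read from it. CTSG was saturated on 2 arrays. The summed level, to which these saturated probes add most, was 6.97 to 7.15 in naive and 7.27 to 7.54 in resistant cells on the log2 scale. The granule genes AZU1 and ELANE rose, with log2 changes of 1.17 and 2.49, and ANPEP (CD13) fell, with -1.83 (limma adjusted p = 0.0472, 0.0169 and 0.0112). All 3 calls were lost without either of the resistant flasks, with 1.16 and 1.17, 2.49 at both, and -1.82 and -1.83. ELANE read -5.74 and -6.56 in the naive flasks and was not well above background in naive flask 2. Its log2 change was 0.78 under normexp and 0.84 with bright local backgrounds reset, and it was called in neither. ELANE lost its call with quantile normalization too. The AZU1 call was lost as well with the replicate number as a block and without the filter on dim probes. It was also lost among probes well above background on all 4 arrays. AZU1 was called in 10 of 17 alternatives, ELANE in 10 of 16 and ANPEP in 13 of 17. Of 11 erythroid markers, of a cell type known for heme synthesis, 6 were tested and none was called by limma. HBB, HBG1 and AHSP were not well above background on any array, and the summed level was -0.70 and -0.40 in naive and -0.05 and -0.44 in resistant cells. Of 8 macrophage markers 3 were above background on no array. MARCO alone was called, with a log2 change of 1.87 (limma adjusted p = 0.0128), and the call was lost without either of the resistant flasks, with 1.95 and 1.79. Under normexp MARCO had a log2 change of 0.91, not called, and with bright local backgrounds reset 1.00, called. CD14, CD68 and C1QA had -0.50, -0.18 and -0.77 and CSF1R had 1.23 (limma adjusted p = 0.3, 0.734, 0.252 and 0.0519). The list's summed level was 1.83 and 1.97 in naive and 2.87 and 3.04 in resistant cells, and CSF1R, the brightest of its probes, read 1.47 and 1.68 against 2.70 and 2.90. Of 4 lymphoid markers CD3D was at least 169-fold lower in resistant cells on the processed signal (limma adjusted p = 0.000755), with log2 changes of -3.72, not called, under normexp and -4.77, called, with bright local backgrounds reset, and the list's summed level was 0.84 and 1.25 in naive and -1.88 and -1.66 in resistant cells. Of 4 stromal markers 3 were above background on no array. The part of these markers in the differences of the heme and iron genes was not tested.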

How the data were processed

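Cy3-labeled RNA from 2 naive and 2 ATO resistant flasks of NB4 cells was put on 4 Agilent arrays of 1 slide. The labels and the methods write the name of the resistant clone differently, and both are taken here for 1 clone. The deposited scanner files, from Feature Extraction 10.5.1.1, give the processed signal as a background-subtracted intensity on a linear scale, beside the mean spot and local background intensities. The authors further deposited log2 values, made with a 75th percentile shift.
Outlier spots were left out, and the log2 intensities of a probe's spots were averaged and shifted in the same way. The members differed from the deposited log2 values by at most 0.00963. Between 27922 and 28244 of 41000 probes per array were well above background, and 457 to 565 were saturated. Of 10 spike-in controls 6 could be used. Set against naive flask 2, their median was -1.31 in naive flask 1, -0.24 in resistant flask 1 and -0.27 in resistant flask 2. The number of arrays limits the precision.
Tested probes were well above background in every flask of 1 line or of both lines. Differences came from limma 3.58.1 (lmFit, eBayes) in R 4.3.3, and calls needed an adjusted p below 0.05 together with a 2-fold change. With 2 flasks per line the smallest p of an exact two-sided permutation test is 0.333, so calls rest on the spread pooled over probes. A gene is given by its brightest tested probe. Where a line had no array with the probe well above background, a lower bound of the fold was taken against the lowest signal of that kind per array, or against the probe itself if that was higher. The code was tested on simulated data. Summed marker levels are log2 of the sum of the linear values.
The members and gene lists were chosen with earlier results of these data known. Named were all members, called genes of the lists and markers, up to 4 of the brightest others per list, called neighbours of BLVRA with the nearest gene on each side, the 5 probes nearest to BLVRA, and ferritin-like names. The values of 1 gene that this rule takes are not reported here. Of 89 listed genes 87 were on the array by name and 73 were tested. Alternatives changed the background correction (normexp with an offset of 50), normalization, filter, test and gene summary, or left out each flask. Probe positions are those of hg19 in the files, and start regions are RefSeq's for GRCh38.p14.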

Additional observations from a re-analysis of the deposited data

How the results depend on the processing

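Of the member genes 2 were called, and 1 without the filter on dim probes and 0 with normexp background correction or the methods' t-test. With the replicate number as a block 1 was called, BLVRA. Over the tested probes, the deviations from the line's mean in same-numbered flasks correlated at 0.119, so that the numbers were not taken as a pairing. Leaving out each flask gave 1 to 3. Of the other heme and iron genes 5 were called, 4 with the block (UROD was lost), and 3 without the filter on dim probes, with normexp with bright backgrounds reset, or for probes well above background on all 4 arrays. Normexp and the methods' t-test gave 0 each, with 3 and 9 genes at an unadjusted p below 0.05, and leaving out flasks gave 2 to 12. The counts at an unadjusted p below 0.05 have no share of all probes beside them, and nothing is read from them. Of the probes beside BLVRA 2 were called, 2 with the block and 1 without the filter. The number was 0 for probes well above background on all arrays, with normexp and with the methods' t-test. There, 5, 2 and 6 had an unadjusted p below 0.05. Leaving out flasks gave 1 to 5. Over all probes the count of 1487 became 3724 without naive flask 1, 4525 without naive flask 2, 742 and 727 without a resistant flask, 760 for probes above background on all 4 arrays, 1004 without the filter, and 0 with normexp or the methods' t-test.
Some directions turned. Under normexp SLC40A1 gave 0.0495, FTMT 0.00880 and PCBP3 0.00584. With bright backgrounds reset FTL gave 0.0560 and SLC40A1 0.00992, and with quantile normalization FTL gave 0.0101. Leaving out each flask gave -0.0885 to 0.239 for HMOX2, -0.184 to 0.0918 for FTL, -0.229 to 0.121 for SLC40A1 and -1.30 to 0.67 for TFRC, the last without naive flask 2 and naive flask 1. BLVRA, BLVRB, FECH, BACH1 and HMOX1 kept their direction in all 18 alternatives. The difference between the naive flasks, followed as an addition after the data were seen, lay between -2.13 and -1.81 for TFRC and between -0.91 and -0.64 for HMOX1. The cause of these shifts was not tested. The slide could not be a block, since there was 1 slide. A lone flask in a line is assumed to vary like the other line.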
